A study of Mus musculus with 18 samples.

Results

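Axon guidance ligands and receptors were examined in RNA of the lateral septum (LS), a forebrain region, from female mice in 3 maternal states. The set was chosen by gene symbol: Slit ligands with their Robo receptors, semaphorins with plexins and neuropilins, ephrins with Eph receptors, and netrins with Dcc and the Unc5 receptors. A gene entered when a probeset (the group of probes that reads 1 transcript) was annotated to that gene alone, and its brightest such probeset by the mean of 18 arrays stood for it. This gave 67 genes of the 19938 genes with a probeset of their own. There were 6 Slits and Robo receptors, 20 semaphorins, 11 plexins and neuropilins, 8 ephrins, 13 Eph receptors, and 9 netrins and netrin receptors. Ephb2 and Ntng2, which the symbols would also take in, had no probeset annotated to them alone and were not analysed here.

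All animals were outbred hsd:ICR females about 70 days old, housed alone after 2 weeks of co-housing. Virgin mice (n = 6) had been kept with other females and were in diestrus when used. Lactating maternal mice (n = 6) had mated and carried a litter set at 11 pups from birth, and were taken on postpartum Day 7 with their pups present. Pups removed mice (n = 6) had mated and given birth in the same way, but lost their pups on Day 2 and were also taken on Day 7, in diestrus. Each animal gave 1 sample of LS punched from frozen sections and 1 Affymetrix Mouse Gene 1.0 ST array, so replicates were separate animals. Comparison of maternal with virgin mice addressed what differs with motherhood, and comparison of maternal with pups removed mice addressed the part of continued contact with pups. Mice without pups also no longer nursed, and the study gives no estrous state for maternal mice. These cannot be told apart from contact with pups.

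Values were log2 signal. Array medians lay between 7.61 and 7.7, and no 2 arrays held identical values. The within-group SD of the 67 genes ran from 0.0407 (Sema4b) to 0.276 (Epha3) with a median of 0.0917, against 0.107 over all 35557 probesets. Differences are given on the log2 scale, first group minus second, with the standard error (SE) of the limma fit. A gene was called when its p, adjusted over all probesets, was under 0.25, which is the study's threshold. The 6 lateral septal neuron markers were all measured, and their mean signal differed little between groups (virgin 10.25, maternal 10.24, pups removed 10.20). In maternal against virgin LS, 3 of these markers were above 0 and 3 below, from -0.155 (Nts) to 0.168 (Trpc4). The level mean thus does not show that each marker was level.

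Guidance cues were first known for steering growing axons in the embryo. Secreted Slits repel axons that carry Robo receptors, and semaphorins act through plexins, for most secreted semaphorins with a neuropilin as co-receptor. Ephrins sit in the membrane of 1 cell and bind Eph receptor tyrosine kinases on its neighbor, and netrins attract through Dcc or repel through Unc5. Many of these genes stay active in the adult brain, where they are known to shape dendritic spines, synapses, vessels and the migration of newborn neurons.

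Between maternal and virgin LS, 2 of the 67 genes were called, and both were lower in maternal mice: Robo2, a receptor for Slits, and Efna3, a ligand of EphA receptors. Over all probesets 1.65% were called and 0.813% were called lower, and of the 19938 genes with a probeset of their own 1.42% were called. The median difference of the 67 genes was -0.0033, beside 0.012 over all probesets and 0 over the 19938 genes. Of the 67 genes, 30 lay above 0, 34 below (49.7% of the 19938 genes did) and 3 at 0, and 50 differed by less than 0.1. An unadjusted p under 0.05 was found for 13 genes, 2 higher and 11 lower, and for 10.4% of all probesets (5.8% higher and 4.62% lower) and 9.77% of the 19938 genes. The 19938 genes, unlike all probesets, were also more often lower: 756 were higher and 1191 lower at an unadjusted p under 0.05, and 90 higher and 194 lower were called. Most guidance genes thus had close to the same signal in both groups, and their larger differences were mainly toward lower signal in maternal mice, as were those of the genes at large.

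**Figure D1:**
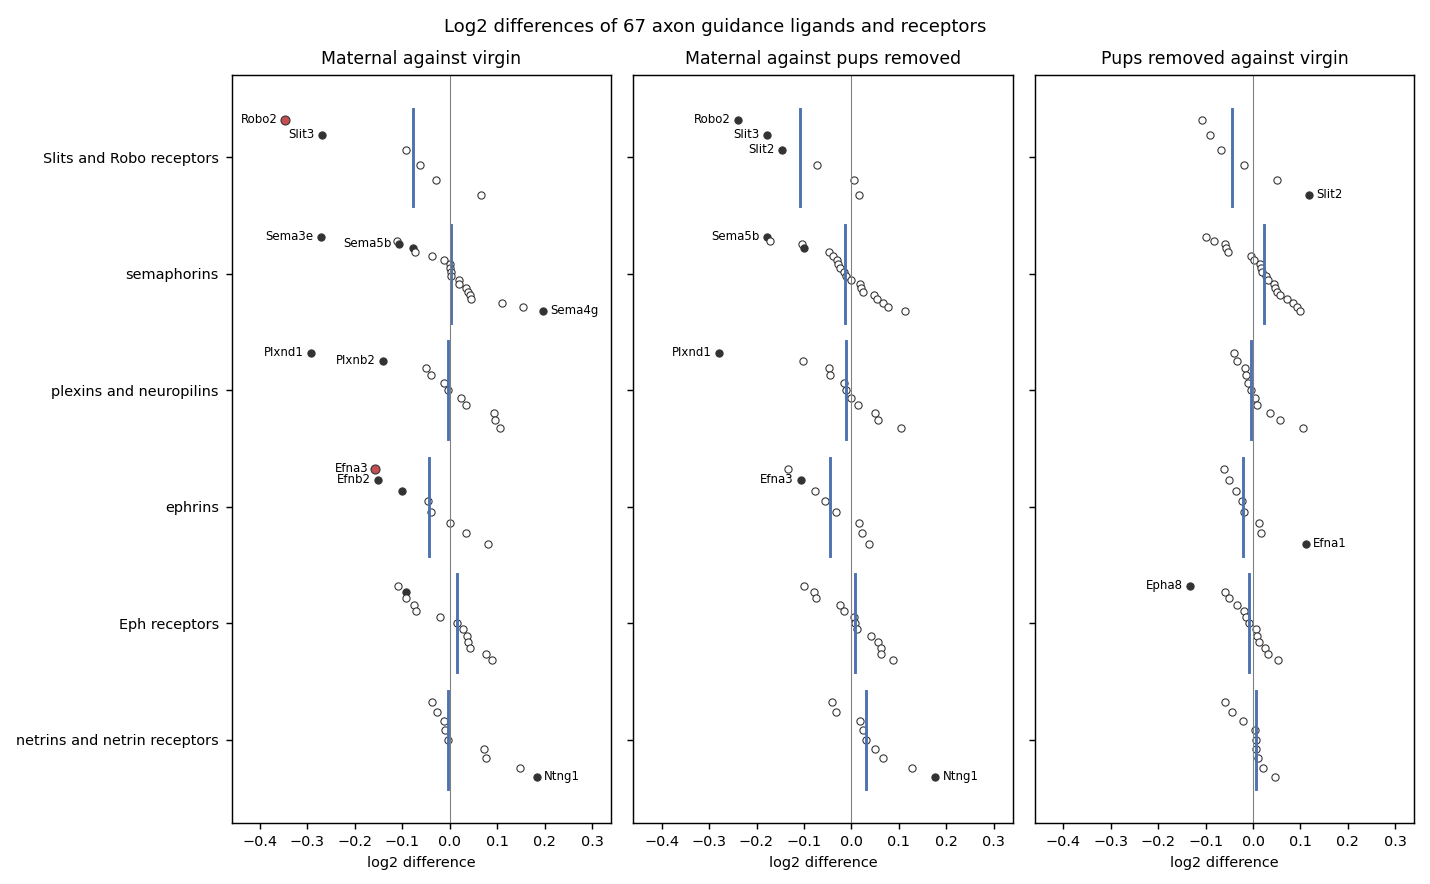
Log2 difference of each of the 67 genes (x axis) by family (y axis) in the 3 comparisons; red points were called (limma adjusted p under 0.25), black points had an unadjusted p under 0.05, open points neither, and blue bars mark family medians. Robo2 and Efna3 are the only called genes, both in maternal against virgin LS, and pups removed against virgin LS has the narrowest spread.

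Robo2 and Sema3e were the 2 genes whose maternal and virgin arrays did not overlap, and Efna3 was the other called gene, so sequence around their transcription starts is shown. RefSeq (GRCm38.p6) holds such promoter windows, from 250 bases before to 50 after a start, for 57 of the 67 genes. The windows were searched on both strands for the E-box letters CACGTG, which read the same on both strands. They were also searched for the GC box GGGCGG. Capitals mark matches, and in the printed windows no match of 1 motif overlapped the other. Robo2 has 3 windows, and the 1 with an E-box, chr16:75447244-75447543 on the minus strand, is printed. Efna3 has 2, and the upstream start at chr3:89322890-89323189 on the minus strand is printed. Sema3e has 1, at chr5:14025026-14025325 on the plus strand.
Robo2: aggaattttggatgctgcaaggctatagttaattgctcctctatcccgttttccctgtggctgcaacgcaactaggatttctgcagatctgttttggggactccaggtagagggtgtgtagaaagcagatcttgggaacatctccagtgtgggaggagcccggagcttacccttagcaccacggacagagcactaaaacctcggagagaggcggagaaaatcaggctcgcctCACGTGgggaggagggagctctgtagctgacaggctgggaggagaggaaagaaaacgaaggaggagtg
Efna3: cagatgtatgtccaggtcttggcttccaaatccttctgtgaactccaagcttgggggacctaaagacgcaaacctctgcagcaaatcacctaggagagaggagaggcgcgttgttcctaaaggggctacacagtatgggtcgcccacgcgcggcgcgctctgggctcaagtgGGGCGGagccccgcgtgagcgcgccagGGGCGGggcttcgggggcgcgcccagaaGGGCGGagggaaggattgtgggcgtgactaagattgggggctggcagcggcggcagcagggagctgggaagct
Sema3e: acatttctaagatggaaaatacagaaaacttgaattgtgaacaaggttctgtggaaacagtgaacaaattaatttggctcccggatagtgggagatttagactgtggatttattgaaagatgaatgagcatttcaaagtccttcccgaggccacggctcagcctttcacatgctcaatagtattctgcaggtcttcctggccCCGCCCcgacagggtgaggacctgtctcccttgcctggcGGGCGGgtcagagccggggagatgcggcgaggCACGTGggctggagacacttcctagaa
The Robo2 and Sema3e windows each held 1 E-box, which 7.15% of all 32851 windows and 6.85% of the 73 windows of these genes also held. The printed Efna3 window held 3 GC boxes and the Sema3e window 2, while none of the 3 Robo2 windows held one. A GC box stood in 74% of the windows of guidance genes and in 35.7% of all windows. The arrays do not tell which start was in use.

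In the Slit and Robo family, 5 of 6 genes were below 0 in maternal against virgin LS, with a median of -0.078. Robo2 signal was 9.29 to 9.57 in virgin mice (median 9.39), 8.78 to 9.17 in maternal mice (median 9.14) and 8.99 to 9.56 in pups removed mice (median 9.28). Every maternal array lay below every virgin array, a separation seen for 0.835% of all probesets, while pups removed arrays spread over both ranges. Robo2 was lower by 0.35 in maternal mice (fold change 0.785, SE 0.0955, limma adjusted p = 0.204). Leaving out any of 7 arrays ended the call. The limma adjusted p was then 0.365, 0.334 and 0.275 without virgin replicates 2, 3 and 5, and 0.343, 0.373, 0.329 and 0.30 without maternal replicates 2, 4, 5 and 6. The difference stayed between -0.37 and -0.29 in all fits that left out 1 array.

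Slit3, a secreted Robo ligand, was 9.37 to 9.58 in virgin mice (median 9.41), 8.93 to 9.37 in maternal mice (median 9.205) and 9.10 to 9.64 in pups removed mice (median 9.31). Only 1 maternal array reached the virgin range. The difference of -0.27 (fold change 0.829, SE 0.0822) had a limma adjusted p of 0.2502, just past the threshold. It fell under the threshold without virgin replicate 1 (0.237) or 6 (0.2497) and without pups removed replicate 1 (0.220) or 6 (0.203). The other members differed less: Robo1 by -0.09, Slit1 by -0.06, Slit2 by -0.03 and Robo3, a divergent Robo that steers midline crossing in the embryo, by 0.07.

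Robo2 signal was related to the mean of a list of striatal markers, the only marker list put to that test. The list of striatal medium spiny neuron markers, neurons of the striatum, which lies beside the LS across the lateral ventricle, had 15 measured genes, and all 15 were lower in maternal than in virgin mice, 5 of them called. Their mean signal per array was 10.24 to 10.48 in virgin mice and 9.49 to 10.12 in maternal mice, with pups removed mice at 9.70 to 10.62, and all were well measured, with Scn4b at 8.18 and Penk at 12.46 in maternal mice. Neural stem cell and neuroblast markers were lower as well, with 8 of 9 below 0 and 3 called, and so were 4 of 4 ependymal and 4 of 4 choroid plexus markers, with none called. Of 6 microglia markers, 4 were below 0 and 2 were called lower. Of 6 endothelial markers, 4 were above 0 and 1, Flt1, was called higher. All 3 oligodendrocyte precursor markers were below 0 with none called, and the remaining lists held no called marker. The mean of the stem cell and neuroblast list was 8.66 to 8.82 in virgin and 8.46 to 8.67 in maternal mice, with pups removed mice at 8.50 to 8.77. These lists were made with earlier results of the same arrays known. The study had reported Bcl11b, Rarb, Rxrg, Drd1 (as Drd1a), Drd2, the stem cell marker Egfr and the microglia marker P2ry12 as lower in maternal than in virgin LS. Of these, Bcl11b, Rarb, Rxrg, Egfr and P2ry12 are among the called markers, so the counts are no independent support. In tissue RNA, fewer cells of a type and less RNA per cell cannot be told apart. Deviations from the group means were related across 18 arrays for the 13 genes with an unadjusted p under 0.05 in maternal against virgin LS, permuting arrays within groups. The marker lists can move together. Pups removed replicate 4 had the lowest striatal (9.70), stem cell and neuroblast (8.50), ependymal (8.42) and choroid plexus (7.93) means of its group. Whether the relations below are particular to the striatal list was not tested.

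Robo2 followed the striatal mean with a Pearson r of 0.908 (permutation p = 5e-05, adjusted over 13 relations 0.00065) and a Spearman coefficient of 0.849 (permutation p = 0.00042, adjusted 0.00273). Without the 2 arrays whose deviation of the striatal mean from the group mean lay farthest from the median deviation, r was 0.842. Within the virgin group r was 0.522, within the maternal group 0.853 and within the pups removed group 0.988. Slit3 had an r of 0.598 (permutation p = 0.0384, adjusted 0.0999) and a Spearman coefficient of 0.511 (permutation p = 0.0563, adjusted 0.122), so its relation did not pass 0.05 after adjustment. Of Sema6b, Efnb2, Plxnb2, Ntng1, Efna2 and Ephb3, none passed either, with r from -0.319 (Ntng1) to 0.473 (Efnb2). The part of the striatal markers in the differences of these genes was not tested.

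**Figure D2:**
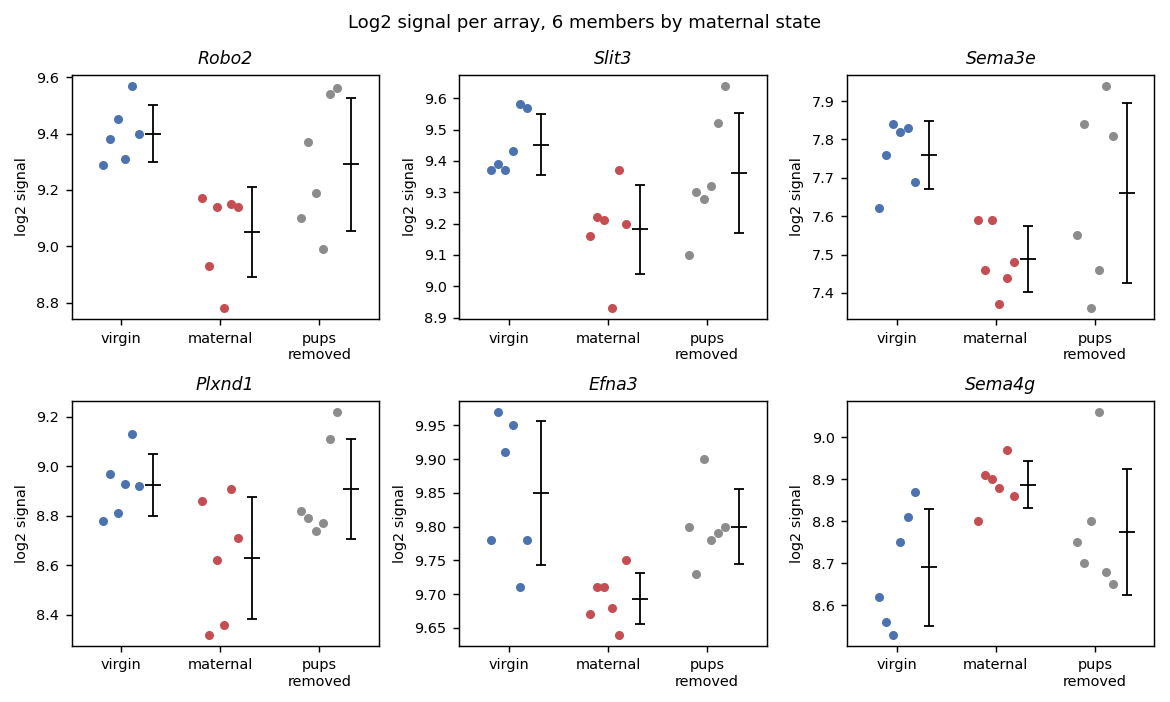
Log2 signal (y axis) on each of the 6 arrays per group for Robo2, Slit3, Sema3e, Plxnd1, Efna3 and Sema4g; points are animals, and the horizontal mark with bars is the mean and SD, and the y axes do not start at 0. Maternal points of Robo2 and Sema3e lie wholly below the virgin points, and pups removed arrays of both span the 2 groups.

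Among the semaphorins, 11 of 20 lay above 0, 7 below and 2 at 0 in maternal against virgin LS, with a median of 0.0025, and none was called. The smallest p belonged to Sema3e, a secreted semaphorin that binds Plxnd1 directly and needs no neuropilin to do so. Sema3e was 7.62 to 7.84 in virgin mice (median 7.79), 7.37 to 7.59 in maternal mice (median 7.47) and 7.36 to 7.94 in pups removed mice (median 7.68). Virgin and maternal arrays did not overlap, and pups removed arrays covered both ranges in full. The difference was -0.27 (fold change 0.828, SE 0.0844, limma adjusted p = 0.263), and it passed the threshold in 6 of the 18 fits that left out 1 array (0.198 to 0.231; virgin replicates 1 and 6, maternal replicate 1 and pups removed replicates 3, 4 and 5).

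Plxnd1, the receptor of Sema3e, was 8.78 to 9.13 in virgin mice (median 8.925), 8.32 to 8.91 in maternal mice (median 8.665) and 8.74 to 9.22 in pups removed mice (median 8.805). The maternal arrays were the most spread (SD 0.248 against 0.125 in virgin mice), with 2 inside the virgin range and 4 below it. Its difference of -0.29 (fold change 0.816, SE 0.108) was not called (limma adjusted p = 0.344). The ligand and its receptor thus both had a lower mean in maternal mice, and neither passed the threshold.

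Sema3e followed the striatal marker mean with an r of 0.839 (permutation p = 0.00084, adjusted 0.00546) and a Spearman coefficient of 0.944 (permutation p = 3e-05, adjusted 0.00039), and r was 0.857 without the 2 farthest arrays. Plxnd1 had an r of 0.599 (permutation p = 0.0224, adjusted 0.0727) and a Spearman coefficient of 0.591 (permutation p = 0.0225, adjusted 0.0808). The part of the striatal markers in these differences was not tested.

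Sema4g, a membrane-bound semaphorin, was the member with the largest higher mean in maternal mice. Its signal was 8.53 to 8.87 in virgin mice (median 8.685), 8.80 to 8.97 in maternal mice (median 8.89) and 8.65 to 9.06 in pups removed mice (median 8.725). Of the maternal arrays, 4 of 6 lay above every virgin array. The difference was 0.20 (fold change 1.15, SE 0.0688, limma adjusted p = 0.315), and it passed the threshold without virgin replicate 6 (0.175) or pups removed replicate 4 (0.202). Sema4g ran opposite to the striatal marker mean with an r of -0.577 (permutation p = 0.0119, adjusted 0.0515) and a Spearman coefficient of -0.536 (permutation p = 0.0249, adjusted 0.0808), and r was -0.408 without the 2 farthest arrays, so this relation did not pass 0.05 after adjustment. It was strongest within the pups removed group (r = -0.880), and weaker within the virgin (-0.145) and maternal (-0.308) groups.

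Sema5b, a transmembrane semaphorin, and Sema6b had differences of -0.11 (limma adjusted p = 0.32) and -0.078 (limma adjusted p = 0.429). The secreted Sema3d, at 0.018, and the transmembrane Sema6d, at 0.038, differed little. Of the plexins and neuropilins, 5 of 11 were above 0 and 6 below, with a median of -0.0033. Plxnb2, a receptor for class 4 semaphorins, was 9.55 to 9.90 in virgin and 9.49 to 9.80 in maternal mice, a difference of -0.14 (limma adjusted p = 0.456, and 0.200 without virgin replicate 6). The neuropilins Nrp1 and Nrp2, which bind class 3 semaphorins, differed by 0.035 and 0.095. The class A plexins, their signaling partners, lay between -0.05 and 0.093, and Plxnb3 differed by 0.11 (limma adjusted p = 0.588).

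Of the 8 ephrins, 2 were above 0, 5 below and 1 at 0, with a median of -0.043, and 1 was called. Efna3, an ephrin anchored to the membrane by a lipid, was 9.71 to 9.97 in virgin mice (median 9.845), 9.64 to 9.75 in maternal mice (median 9.695) and 9.73 to 9.90 in pups removed mice (median 9.795). Of the maternal arrays, 5 of 6 were at or below the lowest virgin and pups removed arrays, and 1 virgin array, at 9.71, lay inside the maternal range. The difference was -0.16 (fold change 0.897, SE 0.0444, limma adjusted p = 0.213). Its call ended without virgin replicates 2, 3 or 4 (0.425, 0.363 and 0.347) and without maternal replicates 2, 3, 4, 5 or 6 (0.32, 0.268, 0.359, 0.391 and 0.30), and in a fit on the virgin and maternal arrays alone (0.297). Unlike for Robo2, the relation of Efna3 to the striatal marker mean was near 0 (r = 0.049, permutation p = 0.826, adjusted 0.895; Spearman coefficient = 0.116, permutation p = 0.621, adjusted 0.678), and the difference between the relations was not tested.

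Efnb2, a transmembrane ephrin also known from arteries, had a difference of -0.15 (limma adjusted p = 0.453), and Efna2 of -0.10 (limma adjusted p = 0.464). Efnb3 differed by -0.04 and Efna1 by 0.08, both within the spread between arrays. The 13 Eph receptors were split, 7 above 0 and 6 below, with a median of 0.015, and none was called. Ephb1 counted as below 0 by its brighter probeset (-0.07, limma adjusted p = 0.561), while its dimmer probeset had a difference of 0.22 (limma adjusted p = 0.534), so its probesets differed in sign. Ephb3 had the smallest p in the family, with 7.6 to 7.77 in virgin and 7.50 to 7.66 in maternal mice (difference -0.093, limma adjusted p = 0.467). The 9 EphA receptors, the class that A-type ephrins bind, had differences from -0.11 (Epha7) to 0.088 (Epha5), with Epha4, a receptor that binds both ephrin classes, at -0.075 and Epha8 at -0.092.

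Of the netrins and their receptors, 4 of 9 were above 0 and 5 below, with a median of -0.0033, and none was called. Dcc, the receptor of attraction to netrins, was 9.69 to 9.85 in virgin and 9.59 to 9.84 in maternal mice, a difference of -0.037. Ntn1, the best known netrin, differed by -0.013 and Ntn3 by 0.077. Of the repulsive receptors, Unc5a differed by -0.027, and Unc5d by 0.15 (limma adjusted p = 0.547), with 0.13 at its other probeset. The secreted netrins and Dcc thus had the same mean in both groups within 0.1.

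Ntng1 (netrin-G1) is a lipid-anchored netrin relative that binds Lrrc4c at synapses and not Dcc. It was 9.53 to 9.83 in virgin mice (median 9.75), 9.64 to 10.04 in maternal mice (median 9.94) and 9.43 to 9.94 in pups removed mice (median 9.765). All maternal arrays but 1 lay above the virgin range. The difference was 0.18 (fold change 1.14, SE 0.0839, limma adjusted p = 0.463), and a further Ntng1 probeset differed by 0.13 (limma adjusted p = 0.449). Neither probeset was called.

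The 54 signaling partners and cofactors of these families, such as exchange factors for small GTPases and the collapsin response mediator proteins (Dpysl genes), were described in the same way, and 52 were measured. In maternal against virgin LS, 22 were above 0 and 30 below, with a median of -0.014, 3 had an unadjusted p under 0.05 and 1 was called, beside the 10.4% and 1.65% of all probesets given above. Ngef encodes ephexin, an exchange factor that acts below EphA receptors. Its signal was 10.20 to 10.38 in virgin mice and 10.05 to 10.15 in maternal mice, with pups removed mice at 10.05 to 10.29. Virgin and maternal arrays did not overlap, and the difference was -0.15 (fold change 0.899, SE 0.0443, limma adjusted p = 0.226). No partner was called against pups removed mice or between pups removed and virgin mice, where medians were 0.0058 and -0.012 and an unadjusted p under 0.05 was found for 3 genes each, beside 8.96% and 8.13% of all probesets.

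Between maternal and pups removed LS, none of the 67 genes was called, and 0.0309% of all probesets and 0.0301% of the 19938 genes were. The study, at the same threshold, lists Efna3 as lower in maternal mice against both virgin and pups removed mice. Here Efna3 was called against virgin mice only. At that threshold the study called more targets in both comparisons of maternal mice than were called here. The counts here were 585 of 35557 probesets against virgin and 11 against pups removed mice, so the mismatch is not limited to Efna3. Why the calls differ was not tested. An unadjusted p under 0.05 was found for 8 genes, 1 higher and 7 lower in maternal mice, and for 8.96% of all probesets (3.33% higher and 5.63% lower) and 9.91% of the 19938 genes (685 higher and 1291 lower). The median difference was -0.0017, and 51 genes differed by less than 0.1.

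Sema5b was closest to the threshold. It was 7.98 to 8.10 in maternal mice (median 8.065) and 8.11 to 8.32 in pups removed mice (median 8.23), with virgin mice between at 8.07 to 8.22 (median 8.17). Maternal and pups removed arrays did not overlap, as for 0.529% of all probesets, but the gap between them was the smallest that the 2-decimal values allow. The difference was -0.18 (fold change 0.884, SE 0.0377, limma adjusted p = 0.275). It passed the threshold without virgin replicate 5 (0.226), maternal replicate 1 (0.220) or pups removed replicates 1 (0.153) or 4 (0.181). The relation of Sema5b to the striatal marker mean was near 0 (r = 0.039, permutation p = 0.904, adjusted 0.904; Spearman coefficient = -0.060, permutation p = 0.828, adjusted 0.828). Within the virgin group r was -0.431, within the maternal group -0.512 and within the pups removed group 0.384, so the pooled value near 0 came from groups of opposite sign.

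**Figure D3:**
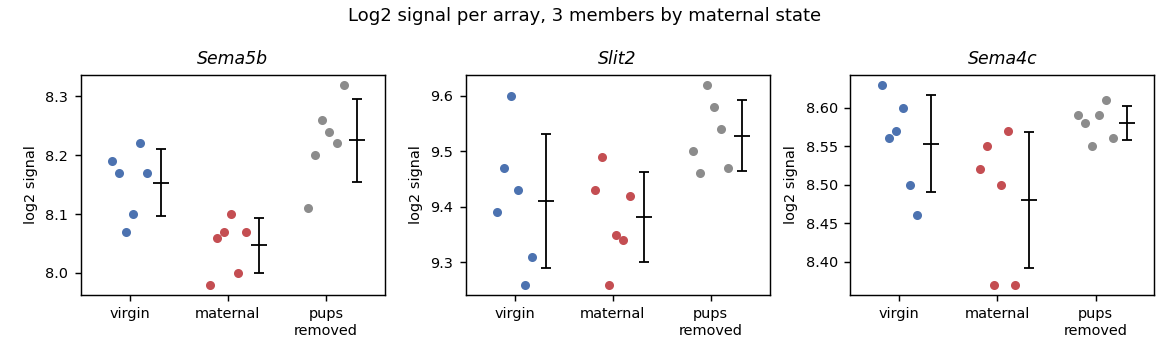
Log2 signal (y axis) on each of the 6 arrays per group for Sema5b, Slit2 and Sema4c; points are animals, the horizontal mark with bars is the mean and SD, and the y axes do not start at 0. Sema5b in maternal mice (up to 8.10) lies below every pups removed array (from 8.11), and Sema4c in pups removed mice is held within 8.55 to 8.61.

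Slit2, a secreted Slit, was 9.26 to 9.49 in maternal mice (median 9.385), 9.46 to 9.62 in pups removed mice (median 9.52) and 9.26 to 9.60 in virgin mice (median 9.41). The pups removed arrays sat at the top, and the maternal arrays lay wholly within the virgin range. The difference from maternal mice was -0.15 (SE 0.0533, limma adjusted p = 0.450). Sema4c, a membrane-bound semaphorin that signals through Plxnb2, was 8.37 to 8.57 in maternal mice (median 8.51) and 8.55 to 8.61 in pups removed mice (median 8.585), a difference of -0.10 (SE 0.0402, limma adjusted p = 0.499).

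Both comparisons of maternal mice used the same maternal arrays, so a gene's values against pups removed mice are no independent support for those against virgin mice, and they are given side by side only. For the 5 genes with the lowest differences from virgin mice, Robo2 differed from pups removed mice by -0.24 (limma adjusted p = 0.493, and 0.240 without pups removed replicate 4), Plxnd1 by -0.28 (limma adjusted p = 0.485), Slit3 by -0.18 (limma adjusted p = 0.548), Sema3e by -0.17 (limma adjusted p = 0.576) and Efna3 by -0.11 (limma adjusted p = 0.511). Of the striatal list, 15 of 15 genes were below 0, with none called and a median of -0.33. Ntng1 was the gene with a higher maternal mean and an unadjusted p under 0.05 (0.18, limma adjusted p = 0.557). Its further probeset differed less, by 0.073 (limma adjusted p = 0.743). By family the medians were -0.11 for Slits and Robo receptors, -0.044 for ephrins, -0.013 for semaphorins, -0.012 for plexins and neuropilins, 0.0067 for Eph receptors and 0.032 for netrins and their receptors.

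**Figure D4:**
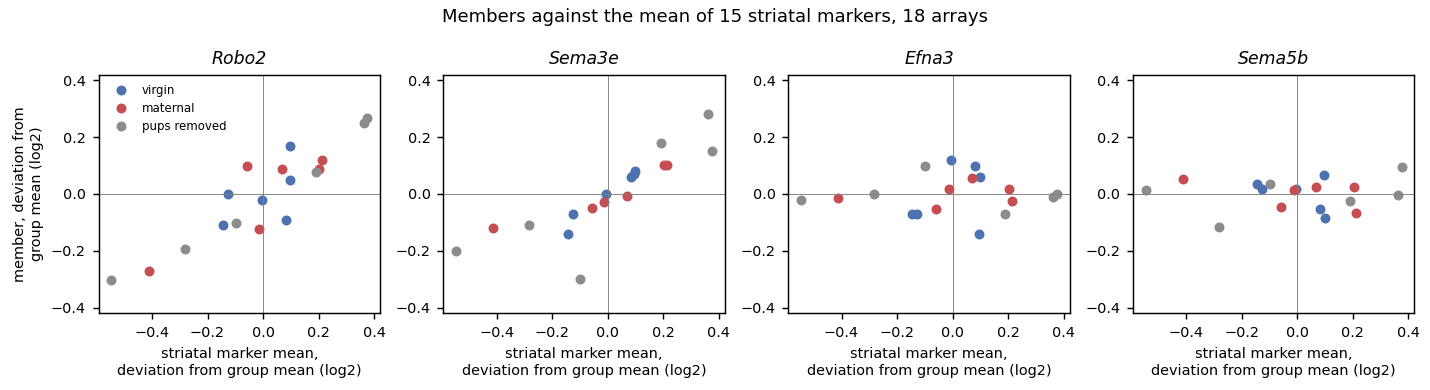
Deviation of Robo2, Sema3e, Efna3 and Sema5b from their group means (y axis, log2) against that of the mean of 15 striatal markers (x axis, log2), with 18 arrays colored by group. Robo2 (r = 0.908) and Sema3e (r = 0.839) climb with the striatal mean. Efna3 (r = 0.049) and Sema5b (r = 0.039) have a pooled r near 0, and for both the sign of r differs between groups.

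Between pups removed and virgin LS, none of the 67 genes was called, against 0.208% of all probesets and 0.0451% of the 19938 genes, and 60 differed by less than 0.1. An unadjusted p under 0.05 was found for 3 genes, and for 8.13% of all probesets and 4.95% of the 19938 genes. Epha8, an EphA receptor, was 7.57 to 7.75 in virgin and 7.43 to 7.66 in pups removed mice, a difference of -0.13 (SE 0.0469, limma adjusted p = 0.429). Slit2 was higher by 0.12 in pups removed mice (SE 0.0533, limma adjusted p = 0.595), and Efna1, a lipid-anchored ephrin, by 0.11 (SE 0.0518, limma adjusted p = 0.60). In no gene did the 2 groups fail to overlap, a separation seen for 0.38% of all probesets. Robo2 (-0.11), Sema3e (-0.10) and Slit3 (-0.09) had means between those of the other groups, and the SD of Robo2 and Sema3e was larger in pups removed mice (0.236 and 0.235) than in virgin mice (0.102 and 0.0888).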

How the data were processed

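The authors summarized and normalized the scans of the arrays with Affymetrix Power Tools 1.12.0 by PLIER with a GC-bin background correction, and deposited log2 signal per probeset with 2 decimals. The genome build is not given in the sources used here, and the values were used as deposited. Of 35557 probesets, 21789 name exactly 1 gene, 1621 several and 12147 none by the platform annotation. The limma package (3.58.1, R 4.3.3) fitted a model of 3 group means over the 18 arrays (empirical Bayes moderation, prior degrees of freedom 2.62), with Benjamini-Hochberg adjustment over all probesets, after the script had been tested on simulated data. RNA was extracted in triplets of 1 animal per group, and the labels do not say whether replicate numbers mark them. Relations to marker means used 100000 permutations of arrays within groups. Arrays have no read depth, and 6 per group limit the precision.

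The genes, lists and tests were chosen with earlier results of these data known. Named are called genes, the 3 with the smallest p and the brightest and dimmest of each family, and genes that tables of the study print. Robo1, Nrp1, Nrp2, Epha3, Epha7, Ephb1, Dcc, Ntn1, Sema4b, Sema4c and Sema6b were named after their values were seen. Promoter windows came from RefSeq. Alternatives were quantile normalization, a mean signal of at least 7, trend and robust moderation, the compared groups alone, adjustment over probesets of 1 gene, the mean of a gene's probesets, the replicate number as a block, and leaving out each array.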

Additional observations from a re-analysis of the deposited data

Results flagged for a closer look

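In 84 groups of 6 arrays, for the 28 genes that the rule named, 5 had a highest or lowest array far from the nearest of the others by Dixon's test, which flags about 1 in 20 groups by chance. Efnb3 was 10.47 in virgin replicate 2, with the other virgin arrays at 10.26 to 10.32. Epha4 was 10.31 in pups removed replicate 4, with the others at 10.58 to 10.65. Sema4g was 9.06 in the same animal, with the others at 8.65 to 8.80. Ntn3 was 8.11 in maternal replicate 1, with the others at 8.20 to 8.25. Sema3d was 7.30 in maternal replicate 4, with the others at 7.07 to 7.12. The pups removed animal of the Epha4 and Sema4g values also had the lowest mean of striatal markers in its group (9.70). Its means of the stem cell and neuroblast, ependymal and choroid plexus markers were the lowest of the group as well.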

How the results depend on the processing

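In maternal against virgin LS, the count of called genes was 2 as reported, 4 after quantile normalization, 6 over probesets with a mean signal of at least 7 (Robo2, Efna3, Slit3, Sema3e, Sema4g and Sema5b), 4 with trend and robust moderation, and 0 to 6 when 1 array was left out. It was 0 without virgin replicates 2 or 3 or maternal replicates 2, 4, 5 or 6, and 6 without virgin replicate 6. In maternal against pups removed LS it was 0 as reported, 1 (Sema5b) with the signal minimum, with trend and robust moderation and with adjustment over probesets of 1 gene, and 0 to 2 when 1 array was left out (2, Robo2 and Sema5b, without pups removed replicate 4). In pups removed against virgin LS it was 0 under every alternative run. For genes that the rule named, no difference with an unadjusted p under 0.05 reversed in direction. Smaller differences were not followed in this way, and some do reverse. In maternal against virgin LS, that of Sema3d changes sign without maternal replicate 4, and that of Ephb1 with the mean of its probesets. Of the family medians, only that of the Eph receptors in maternal against virgin LS moved by more than its spread, without virgin replicate 5 or 6 or maternal replicate 1. The cause of these changes was not tested. Arrays of 1 replicate number did not deviate together (18 pairs, correlations of -0.25 to 0.095, own number highest in 1), so the numbers were not taken to pair the animals. With the replicate number as a block, 2 genes were called in maternal against virgin LS, Robo2 and Slit3, and 356 probesets, against 585 without it, and Efna3 had a limma adjusted p of 0.275. Over all probesets the maternal against virgin count of 585 became 1130 with the signal minimum, 263 over probesets of 1 gene, and 10 (without maternal replicate 5) to 1639 (without virgin replicate 6) with 1 array left out. The maternal against pups removed count of 11 became 42 after quantile normalization, 204 with the signal minimum, 30 with trend and robust moderation, 74 over probesets of 1 gene, and 5 to 719 with 1 array left out (719 without pups removed replicate 4 and 204 without maternal replicate 1). In pups removed against virgin LS, 67 higher and 7 lower calls became 56 and 38 after quantile normalization, 33 calls in all on the compared groups alone, 0 over probesets of 1 gene, and 18 (without virgin replicate 2) to 266 (without virgin replicate 4) with 1 array left out.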
